A study of Arabidopsis thaliana with 18 samples.

Results

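The genes described here are 10 response regulators of the cytokinin pathway in Arabidopsis thaliana: the type-A regulators ARR3 (AT1G59940), ARR4 (AT1G10470), ARR5 (AT3G48100), ARR6 (AT5G62920), ARR7 (AT1G19050), ARR8 (AT2G41310), ARR9 (AT3G57040), ARR15 (AT1G74890) and ARR16 (AT2G40670), and the type-C regulator ARR22 (AT3G04280). They were chosen by locus from tables of 31362 rows that hold 33378 loci. All 10 had a row of their own, 0 shared it with an overlapping gene, and all 10 passed the filter on low counts.

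Cytokinins are plant hormones perceived by histidine kinase receptors in the membrane system of the cell. The signal passes as a phosphate group through histidine phosphotransfer proteins to type-B response regulators, which are transcription factors and switch on the type-A response regulators. Type-A proteins have a receiver domain and no DNA-binding output domain, are induced rapidly by cytokinin, and act as a negative feedback on the pathway. ARR22 belongs to the small type-C class: it has a receiver domain, its transcript is not induced by cytokinin, and it is known mainly from flowers and developing seeds.

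The study sequenced mRNA of 18 libraries from plants of the Col-0 accession, labelled as whole seedlings taken 11 days after germination grown with 18 h days and 6 h nights at 22 °C. The groups were 35S-RTL1-Myc (n = 2), 35S-truncatedDCL1 in dcl2 dcl3 dcl4 (n = 1), 35S-RTL2 in dcl2 dcl3 dcl4 (n = 3), dcl2 dcl3 dcl4 alone, called dcl234 here (n = 3), 35S-RTL2 (n = 3), the mutant rtl2-1 (n = 3) and wild-type Col-0 (n = 3). RTL1 and RTL2 are RNase III-like enzymes, DCL2, DCL3 and DCL4 are Dicer-like enzymes that make small interfering RNAs, and DCL1 is the Dicer of microRNAs. The viral 35S promoter drives a transgene in most cell types. The labels do not say how many independent lines or plants a library stands for, and the tests speak to differences between these libraries, whether their spread is biological or technical.

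Total counts per library ran from 20775728 to 34874423, and levels below are in CPM, the usual unit of counts scaled to library size, after TMM scaling. The genes of the genotypes checked the labels: RTL1 stood at 1525 to 1585 CPM in 35S-RTL1-Myc, against 0.167 to 0.565 CPM in Col-0. RTL2 stood at 1674 to 2053 CPM in dcl234 35S-RTL2, at 515 to 618 CPM in 35S-RTL2, at 0.304 to 0.592 CPM in rtl2-1 and at 2.89 to 2.98 CPM in Col-0. The row with DCL1, which it shares with other genes, stood at 1417 CPM in dcl234 35S-truncatedDCL1, against 143 to 152 CPM in dcl234. The row with DCL3 stood at 2.58 to 3.75 CPM in dcl234, against 19.1 to 21.7 CPM in Col-0. DCL4 overlapped, with 25.9 to 31.8 CPM in dcl234 and 27.1 to 35.4 CPM in Col-0, so its transcript checks nothing. The tissue label did not match some of the markers: 6 flower identity genes summed to 561 to 795 CPM over the libraries, with SEP3, a floral organ identity gene, at 193 ± 15.1 CPM in Col-0 (SD, n = 3). RHD6, which starts root hairs, had 0 counts in all 3 Col-0 libraries, and EXPA7, a root hair expansin, averaged 0.0283 CPM there. Of the 7 root markers, 4 averaged below 1 CPM in Col-0. Others were expressed: 5 of the 7 passed the filter, and the list summed to 83.8 to 90.1 CPM in Col-0.

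ARR22 was the regulator with the widest range. It had 0.253 and 0.0340 CPM in the 35S-RTL1-Myc libraries, which rest on 7 and 1 counts. The single dcl234 35S-truncatedDCL1 library had 0.227 CPM. The dcl234 35S-RTL2 libraries had 0.510, 0.584 and 0.518 CPM, and the dcl234 libraries had 0.159, 0.579 and 0.314 CPM. All 9 of these libraries were low. The 35S-RTL2 libraries had 6.01, 4.47 and 3.09 CPM, the rtl2-1 libraries 7.21, 6.73 and 1.62 CPM, and the Col-0 libraries 4.85, 4.45 and 3.06 CPM. Every library with wild-type DCL genes and no RTL1-Myc therefore stood above every library of the other kind, and within each kind neighbouring groups in the order of means overlapped.

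**Figure D1:**
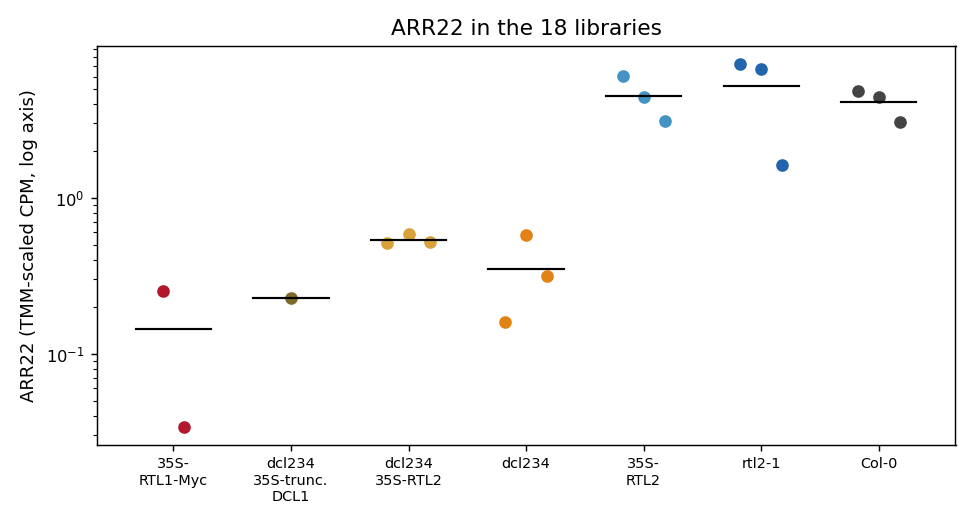
ARR22 level in TMM-scaled CPM on a log axis for the 18 libraries by group; points are libraries and lines are group means. The 9 libraries with 35S-RTL1-Myc or the dcl234 background lie between 0.0340 and 0.584 CPM, and the other 9 between 1.62 and 7.21 CPM.

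Against Col-0, ARR22 fell in 35S-RTL1-Myc, with a log2 fold change of -4.82 (SE 0.77, adjusted p = 0.000322, edgeR quasi-likelihood test with Benjamini-Hochberg adjustment over 21343 rows). It also fell in dcl234, with a log2 fold change of -3.57 (SE 0.58, edgeR adjusted p = 0.00344). A change in whole plants can come from fewer cells of a type or from less RNA per cell, and the libraries cannot tell these apart. Both contrasts share the 3 Col-0 libraries, so a further contrast without them was added after the values had been seen. In it ARR22 fell in dcl234 35S-RTL2 against 35S-RTL2, with a log2 fold change of -3.06 (SE 0.54, edgeR adjusted p = 0.00194). The size of the first change is loose, since the lower 35S-RTL1-Myc library holds 1 count: the log2 fold change was -3.99 without 35S-RTL1-Myc replicate 2 and -6.73 without 35S-RTL1-Myc replicate 1. Both of those values also passed the test, at edgeR adjusted p of 0.00766 and 0.00251.

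ARR22 was not called in the other contrasts. Its log2 fold change was 0.64 (SE 0.67) in dcl234 35S-RTL2 against dcl234 and -0.59 (SE 1.03) in dcl234 35S-truncatedDCL1 against dcl234. It was 0.32 (SE 0.45) in rtl2-1 against Col-0 and 0.13 (SE 0.45) in 35S-RTL2 against Col-0. The deposited tables carry a number from 1 to 3 in their names, whose meaning the labels do not give. Within number 2, log2 ARR22 in 35S-RTL1-Myc minus Col-0 was -5.16 and within number 3 it was -3.78. The 2 genotypes dcl234 and Col-0 meet within number 3 alone, where the difference was -3.54.

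The split of ARR22 into low and high libraries was shared by other rows. Of the 21343 rows tested, 643 (3.01%) were lower in all 9 libraries with 35S-RTL1-Myc or the dcl234 background than in all 9 others, and 318 (1.49%) were higher. This split follows genotype labels, but it was set after the ARR22 values had been seen and carries no test. By the root mean square difference of centred log2 CPM over the 18 libraries, the rows most like ARR22 were LCR61 (AT4G30064) at 0.486, AT3G19940 at 0.488, AT5G54220 at 0.518, scpl21 (AT3G25420) at 0.533 and AT1G13609 at 0.535. ARR22 itself spread by 1.90 on that scale.

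Some, but not most, marker genes of late flower and seed tissues were called in the contrasts in which ARR22 fell. Their lists, and the genes named from them, were chosen after the values had been seen. BAN, an anthocyanidin reductase of the seed coat, had 0.996, 0.890 and 0.910 CPM in dcl234, against 19.2, 13.2 and 4.87 CPM in Col-0. The 2 groups did not overlap, and BAN fell by 3.73 on the log2 scale (SE 0.81, edgeR adjusted p = 0.0166). It had 4.23 and 1.87 CPM in 35S-RTL1-Myc, which did not overlap with Col-0 either, but there it was not called. Like ARR22, BAN had its lowest rtl2-1 value in replicate 3, at 4.46 CPM, against 45.1 and 26.0 CPM in the other rtl2-1 libraries. VGD1, a pectin methylesterase of pollen, averaged 452 CPM in 35S-RTL1-Myc and 907 CPM in Col-0 (log2 fold change -1.01, SE 0.26, edgeR adjusted p = 0.00942). It averaged 490 CPM in dcl234, a log2 fold change of -0.89 against Col-0 (SE 0.23, edgeR adjusted p = 0.0391).

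Of the 6 tapetum and pollen genes, 2 fell in each of those contrasts and 0 rose, where 14.7% of all rows fell in 35S-RTL1-Myc and 3.8% in dcl234. GRP17, a pollen coat protein of that list, was not called, and at 277 CPM in the dcl234 35S-truncatedDCL1 library, where ARR22 was low, it was level with the highest Col-0 library at 278 CPM. The 6 tapetum and pollen genes summed to 585 to 754 CPM in 35S-RTL1-Myc, of which VGD1 alone gave 421 to 483 CPM. That sum ran from 608 to 736 CPM in dcl234. It ran from 1195 to 1513 CPM in Col-0, of which VGD1 gave 766 to 1018 CPM, so the sum mostly restates VGD1. Of 6 ovule, carpel and seed coat genes, 1 rose and 2 fell in 35S-RTL1-Myc, where 29.5% of all rows were called, and 0 rose and 1 fell in dcl234, where 4.56% were. The one that rose was the row of SHP2, a carpel and ovule identity gene, which it shares with a neighbour. That row had 64.7 and 62.6 CPM in 35S-RTL1-Myc, against 42.3, 47.4 and 39.2 CPM in Col-0. Of 5 seed storage markers 2 passed the filter, and edgeR called 0 of them in either contrast. The 6 ovule, carpel and seed coat genes summed to 141 to 147 CPM in 35S-RTL1-Myc. That sum ran from 128 to 138 CPM in dcl234 and from 138 to 171 CPM in Col-0. No gene of the tapetum and pollen list or of the ovule, carpel and seed coat list was at 0 in a whole group. Of the 5 seed markers, 1 was at 0 in dcl234 and 1 in Col-0. The 6 flower identity genes gave 0 calls in both contrasts by edgeR. In the added contrast of dcl234 35S-RTL2 with 35S-RTL2, 11.8% of all rows fell and 9.11% rose. There 2 of the 6 tapetum and pollen genes fell and 0 rose. Of the 6 ovule, carpel and seed coat genes 2 fell and 0 rose, and of the 6 flower identity genes 1 fell and 0 rose. The part of these tissues in the ARR22 result was not tested.

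**Figure D2:**
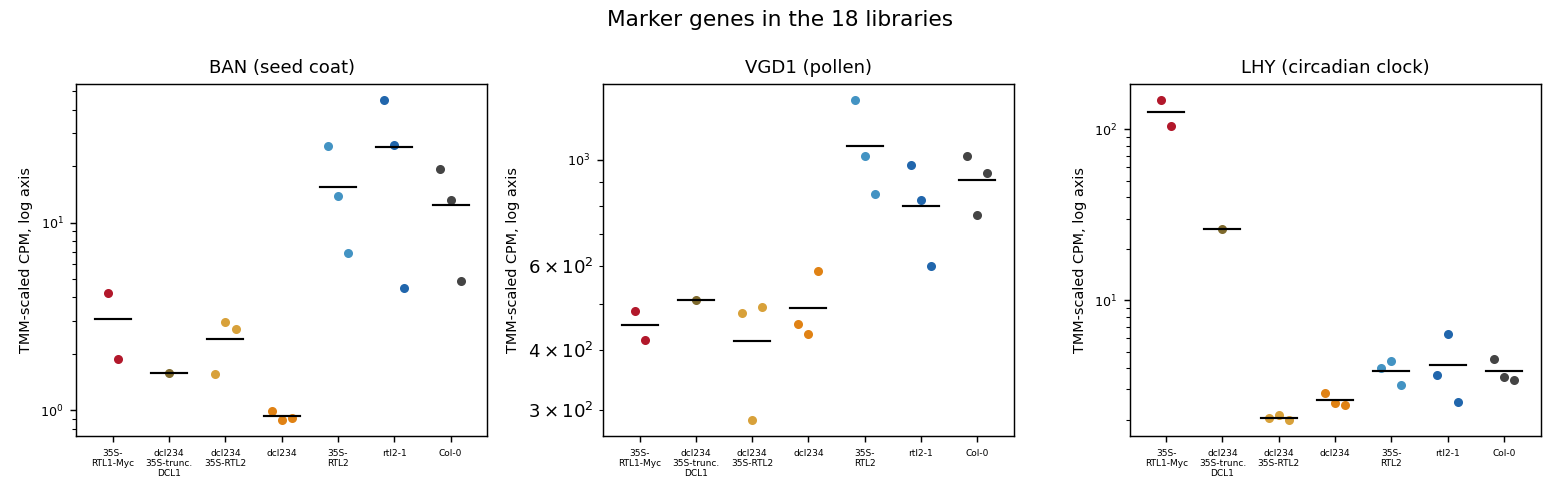
Levels of BAN, VGD1 and LHY in TMM-scaled CPM on log axes for the 18 libraries by group; points are libraries and lines are group means. BAN stays at or below 4.23 CPM in the libraries with low ARR22, and LHY is highest in 35S-RTL1-Myc at 104 and 149 CPM.

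In 35S-RTL1-Myc against Col-0, 4 of the 9 type-A regulators rose and 1 fell, so that with ARR22 6 of the 10 members were called. Over all rows 29.5% were called in this contrast, 14.8% higher and 14.7% lower, and the members' count is read against that. The median log2 fold change of the 9 type-A genes was 0.51, against -0.0040 over all rows tested.

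ARR8 and ARR9 are closely related type-A proteins. ARR8 had 29.6 and 24.5 CPM in 35S-RTL1-Myc, against 13.5, 13.5 and 12.6 CPM in Col-0. ARR9 had 18.1 and 15.6 CPM in 35S-RTL1-Myc, against 9.36, 10.4 and 8.93 CPM in Col-0. Neither gene overlapped between the groups, and for both the 35S-RTL1-Myc libraries were the highest of all 18. ARR8 rose by 1.03 on the log2 scale (SE 0.14, edgeR adjusted p = 9.28e-05), and ARR9 by 0.82 (SE 0.13, edgeR adjusted p = 0.000324). Each was called in all 11 alternatives run for that contrast. Within table numbers 2 and 3 the log2 differences were 0.90 and 1.13 for ARR8 and 0.76 and 0.80 for ARR9.

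ARR5 and ARR6 are a second related pair, and the ARR5 promoter is a common reporter of cytokinin response. ARR6 had 9.84 and 7.69 CPM in 35S-RTL1-Myc, against 5.73, 5.01 and 3.02 CPM in Col-0. ARR5 had 13.2 and 11.5 CPM in 35S-RTL1-Myc, against 7.82, 8.85 and 7.76 CPM in Col-0. The groups did not overlap for either gene. ARR6 rose by 0.93 (SE 0.28, edgeR adjusted p = 0.0206), but the call was lost without 35S-RTL1-Myc replicate 1 (adjusted p = 0.158) or without Col-0 replicate 3 (adjusted p = 0.0813). ARR5 rose by 0.60 (SE 0.22, edgeR adjusted p = 0.0481), just inside the threshold, and was called in 3 of 11 alternatives, whose edgeR or DESeq2 adjusted p ran from 0.00638 to 0.230. It was lost in each of the 5 fits that left out a library of either group.

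ARR16 moved the other way. It had 9.27 and 10.2 CPM in 35S-RTL1-Myc, against 26.0, 29.3 and 28.2 CPM in Col-0. These were the 2 lowest ARR16 values of the 18 libraries. ARR16 fell by 1.51 on the log2 scale (SE 0.26, edgeR adjusted p = 0.000587) and was called in all 11 alternatives. Within table numbers 2 and 3 the log2 differences were -1.40 and -1.65.

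The other 4 type-A genes were not called. ARR7 was called when 35S-RTL1-Myc and Col-0 were fitted alone (log2 fold change 0.52, edgeR adjusted p = 0.0228), which gave 7 called members in place of 6. ARR7 and ARR15, which are repressed by WUSCHEL in the shoot meristem, had log2 fold changes of 0.51 (SE 0.28) and 0.34 (SE 0.27). ARR4, which binds phytochrome B, had -0.10 (SE 0.24), and ARR3 had -0.53 (SE 0.36) at 0.458 CPM in 35S-RTL1-Myc and 0.663 CPM in Col-0. ARR7 had 17.4 and 17.5 CPM in 35S-RTL1-Myc and at most 14.3 CPM in Col-0. ARR15 had 3.91 and 3.13 CPM in 35S-RTL1-Myc and at most 3.01 CPM in Col-0. ARR3 had at most 0.507 CPM in 35S-RTL1-Myc and at least 0.604 CPM in Col-0. ARR7, ARR15 and ARR3 thus did not overlap between the groups despite missing the threshold, whereas ARR4 did overlap.

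**Figure D3:**
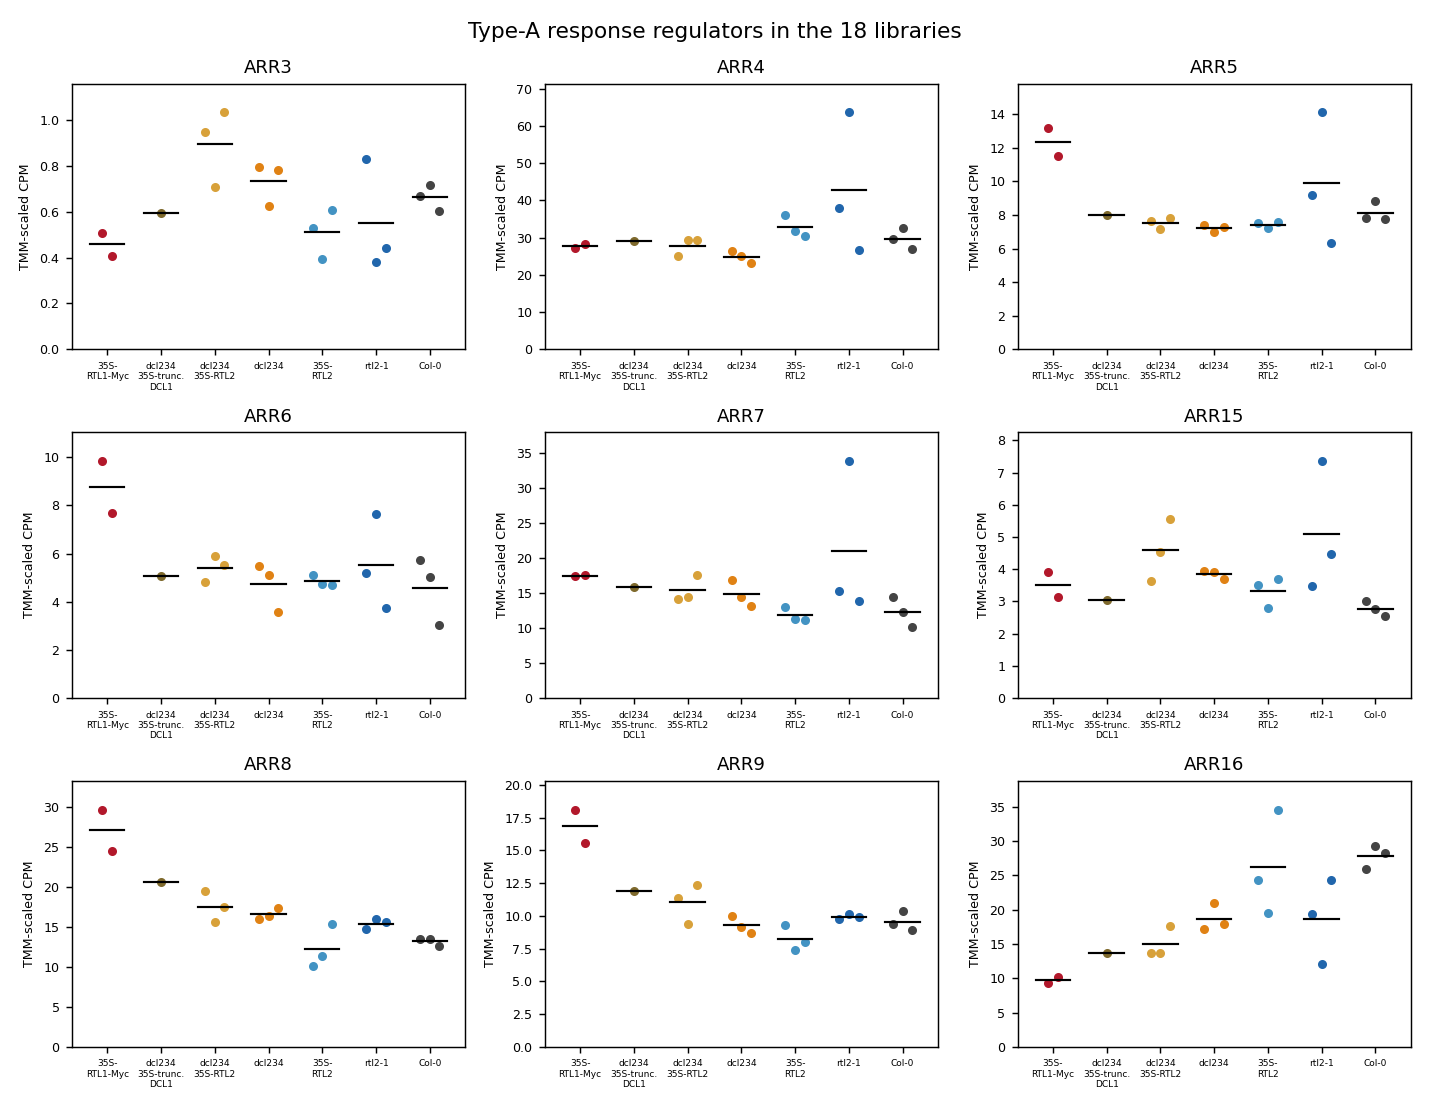
Levels of the 9 type-A regulators in TMM-scaled CPM on linear axes from 0, by group; points are libraries and lines are group means. ARR8 and ARR9 are highest and ARR16 lowest in 35S-RTL1-Myc, and rtl2-1 replicate 2 stands above the other libraries for ARR4, ARR5, ARR7 and ARR15.

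The 9 genes summed to 124 ± 7.22 CPM in 35S-RTL1-Myc (SD, n = 2) and 109 ± 7.33 CPM in Col-0 (SD, n = 3). The libraries did not overlap, at 119 and 129 CPM in 35S-RTL1-Myc and 101 to 115 CPM in Col-0, and the sum was not tested. ARR16 made up 7.88% of that sum in 35S-RTL1-Myc and 25.7% in Col-0. ARR8 made up 21.8% in 35S-RTL1-Myc and 12.2% in Col-0. Per kilobase of exon, ARR16 stood at 4.69 CPM in 35S-RTL1-Myc and 13.4 CPM in Col-0, and ARR8 at 11.4 CPM in 35S-RTL1-Myc and 5.58 CPM in Col-0. On that scale ARR16 was above ARR8 in Col-0 and below it in 35S-RTL1-Myc.

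**Figure D4:**
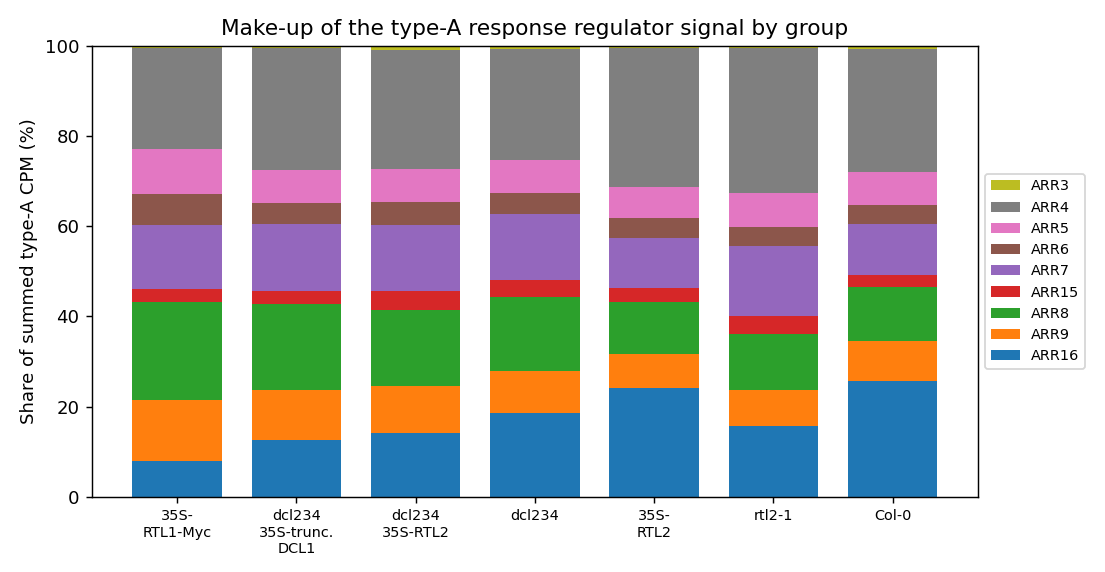
Mean share of each type-A regulator in the summed type-A CPM, in percent, by group; the bars stack to 100. The ARR16 share is 7.88% in 35S-RTL1-Myc, 18.6% in dcl234 and 25.7% in Col-0.

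Circadian clock genes moved with 35S-RTL1-Myc as well: of 12 clock genes, 5 rose and 6 fell against Col-0. LHY, a morning clock gene, had 149 and 104 CPM in 35S-RTL1-Myc, against 4.52, 3.54 and 3.41 CPM in Col-0. The summed clock level adds genes that rose to genes that fell, so its overlap does not measure their changes. It overlapped, at 769 to 897 CPM in 35S-RTL1-Myc and 846 to 878 CPM in Col-0, and no clock gene was at 0. The labels give no hour of harvest, and the part of time of day in the type-A changes was not tested. In 35S-RTL1-Myc against Col-0, 29.5% of all rows were called, 14.7% lower. Of 5 leaf genes 2 fell there and 0 rose. Their summed level was 12872 to 13445 CPM in 35S-RTL1-Myc and 15476 to 17455 CPM in Col-0. Of 5 root genes tested 1 fell and 0 rose, with a summed level of 100.4 to 107 CPM in 35S-RTL1-Myc and 83.8 to 90.1 CPM in Col-0 over all 7 on the list, of which RHD6 was at 0 in both groups. These leaf and root counts are read against that share of all rows, and the part of these organs was not tested either. In dcl234 against Col-0, 0 of the 12 clock genes were called by edgeR, where 4.56% of all rows were.

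In dcl234 against Col-0, ARR22 was the 1 member called, where 4.56% of rows were called, 0.754% higher and 3.8% lower. ARR16 had 17.3, 20.9 and 17.9 CPM in dcl234, against 26.0, 29.3 and 28.2 CPM in Col-0. These libraries did not overlap, but the log2 fold change of -0.57 (SE 0.22) missed the threshold (edgeR adjusted p = 0.179). When dcl234 and Col-0 were fitted alone, 4 members were called: ARR22, ARR16 at -0.58 (adjusted p = 0.0023), ARR8 at 0.32 (adjusted p = 0.0197) and ARR15 at 0.47 (adjusted p = 0.0461). That fit called 3336 rows in all, against 973 with all 18 libraries. The remaining log2 fold changes ran from -0.26 for ARR4 to 0.48 for ARR15.

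In the added contrast of dcl234 35S-RTL2 with 35S-RTL2, 4 members were called, 2 higher and 2 lower, where 20.9% of rows were called, 9.11% higher and 11.8% lower. ARR16 had 13.6, 13.6 and 17.6 CPM in dcl234 35S-RTL2, against 24.3, 19.6 and 34.6 CPM in 35S-RTL2. It fell by 0.81 on the log2 scale (SE 0.22, edgeR adjusted p = 0.0217). ARR8 had 19.5, 15.6 and 17.4 CPM in dcl234 35S-RTL2, against 10.1, 11.4 and 15.3 CPM in 35S-RTL2, and rose by 0.51 (SE 0.13, edgeR adjusted p = 0.0152). The groups did not overlap for either gene, although ARR8 came close. ARR9 rose by 0.43 (SE 0.12, edgeR adjusted p = 0.0241), with means of 11.0 CPM in dcl234 35S-RTL2 and 8.23 CPM in 35S-RTL2. ARR3 had 0.82 (SE 0.31) and was not called (edgeR adjusted p = 0.0731).

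Of these, the ARR22 call held in all 12 alternatives, and those of ARR8, ARR9 and ARR16 in 8, 7 and 8 of 12. Without dcl234 35S-RTL2 replicate 1, 1 member was called, ARR22. ARR16 was also lost without 35S-RTL2 replicate 3 (log2 fold change -0.56, adjusted p = 0.0658), and within table numbers 1 and 3 its log2 differences were -0.83 and -0.15.

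**Figure D5:**
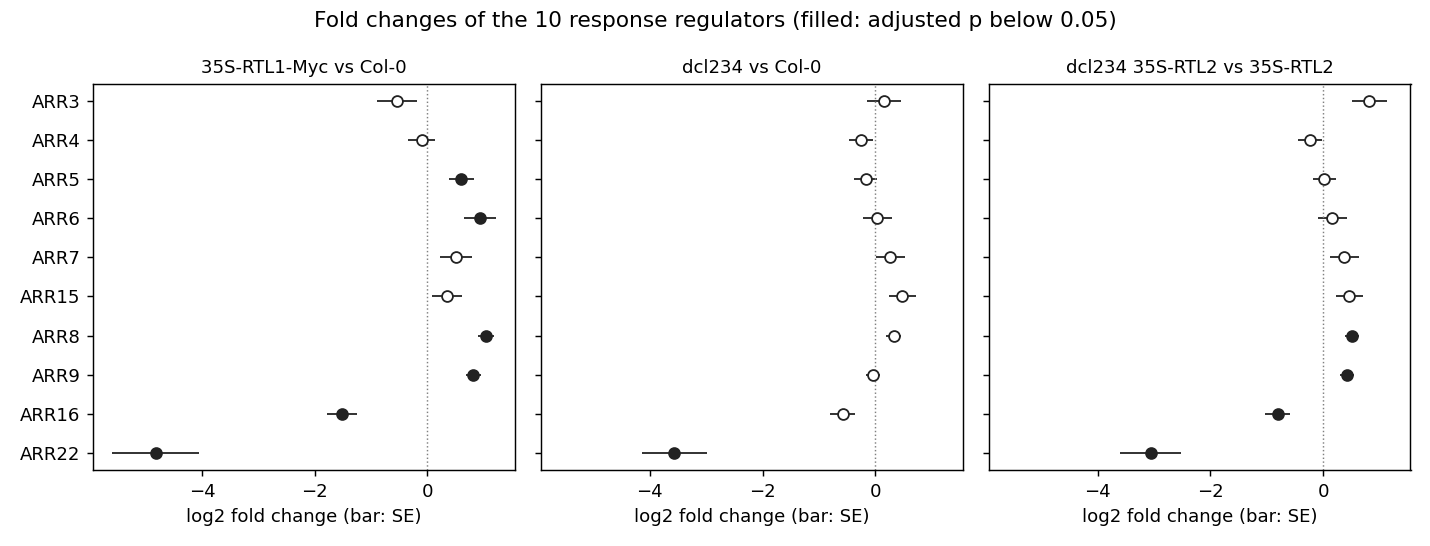
Log2 fold change of each of the 10 regulators in 3 contrasts, with bars for the SE; filled points have an edgeR adjusted p below 0.05. ARR22 lies at -4.82, -3.57 and -3.06, and ARR16 at -1.51, -0.57 and -0.81.

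The remaining contrasts gave no called member. In rtl2-1 against Col-0, edgeR and DESeq2 each called 0 of 10, with 0.122% of all rows called by edgeR; 4 members had an unadjusted edgeR p below 0.05. These were ARR15 at 0.88 (SE 0.24), ARR7 at 0.77 (SE 0.26), ARR4 at 0.52 (SE 0.21) and ARR16 at -0.57 (SE 0.22). For ARR15, ARR7 and ARR4, rtl2-1 replicate 2 was the highest rtl2-1 library. Without it the log2 fold changes were 0.52 for ARR15, 0.25 for ARR7, 0.12 for ARR4 and -0.34 for ARR16. ARR7 had 15.2, 33.8 and 13.9 CPM in rtl2-1, against 14.3, 12.3 and 10.1 CPM in Col-0. ARR4 had 37.8, 63.8 and 26.8 CPM in rtl2-1, against 29.5, 32.6 and 27.0 CPM in Col-0. The second value is that of rtl2-1 replicate 2, which held the highest ARR4, ARR5, ARR7 and ARR15 levels of the 18 libraries and, at 12.1 CPM, the lowest ARR16 outside 35S-RTL1-Myc. This library stood apart over all rows tested too. Its log2 CPM correlated at r = 0.968 and 0.964 with rtl2-1 replicates 1 and 3, the lowest values within any group.

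In 35S-RTL2 against Col-0, edgeR and DESeq2 each called 0 of 10, 0 had an unadjusted edgeR p below 0.05, and 0.00937% of rows were called by edgeR. Log2 fold changes ran from -0.38 for ARR3 to 0.26 for ARR15. In dcl234 35S-RTL2 against dcl234, edgeR and DESeq2 again each called 0 of 10, 0 had an unadjusted edgeR p below 0.05, and 0.0609% of rows were called by edgeR. The range there was -0.32 for ARR16 to 0.64 for ARR22.

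In dcl234 35S-truncatedDCL1 against dcl234, where 1 library stands alone and its spread is taken from the other groups, edgeR and DESeq2 each called 0 of 10, and 5.65% of rows were called by edgeR. ARR9 was the 1 member with an unadjusted edgeR p below 0.05, at 0.36 (SE 0.16). In that contrast 6 of the 12 clock genes rose and 2 fell, LHY among those that rose. The effect of 35S-RTL2 in dcl234 minus its effect in Col-0 gave 0 of 10 by edgeR and by DESeq2, with 0.00937% of rows called by edgeR. ARR9 had the 1 unadjusted edgeR p below 0.05, at 0.47 (SE 0.17), and its adjusted p was 0.891.

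Over the 7 groups, most neighbours in the order of means overlapped. Of 60 pairs of neighbouring groups in these orders, 12 (20.0%) had libraries that did not overlap, against 17.5% of such pairs over all rows tested. Group means of ARR8 ran from 27.1 CPM in 35S-RTL1-Myc through 20.6 CPM in dcl234 35S-truncatedDCL1, 17.5 CPM in dcl234 35S-RTL2, 16.6 CPM in dcl234 and 15.4 CPM in rtl2-1 to a low end of 12.3 CPM in 35S-RTL2 and 13.2 CPM in Col-0. The dcl234 libraries overlapped with both of their neighbours in that order, as did those of 35S-RTL2 with Col-0. Group means of ARR16 were 9.74 CPM in 35S-RTL1-Myc, 13.7 CPM in dcl234 35S-truncatedDCL1, 15.0 CPM in dcl234 35S-RTL2, 18.7 CPM in dcl234, 26.2 CPM in 35S-RTL2, 18.7 CPM in rtl2-1 and 27.8 CPM in Col-0. For ARR16 each neighbouring pair overlapped, with the exception of 35S-RTL1-Myc and dcl234 35S-truncatedDCL1.

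Among themselves, the 3 pairs most alike over the 18 libraries were pairs of close relatives, as a description with no test. The root mean square difference of centred log2 CPM was 0.196 for ARR8 and ARR9, 0.245 for ARR5 and ARR6, and 0.250 for ARR7 and ARR15. The next value was close, 0.264 for ARR5 and ARR9, and the related pair ARR3 and ARR4 stood far apart at 0.570. That distance was not particular to the pair. ARR3 stood at 0.488 (ARR9) to 0.597 (ARR6) from the type-A genes. It held only 9 to 26 counts per library, against 562 to 1507 for ARR4. By the same measure over all rows tested, the row most like ARR16 was NAC6 at 0.131, followed by AIRP2 at 0.169 and GA2OX2, a gibberellin-inactivating oxidase, at 0.196. Those nearest to ARR8 were AT5G63700 at 0.143, AT3G60290 at 0.146 and AT2G25690 at 0.147, and those nearest to ARR9 were LCAT3 at 0.125, AT3G23910 at 0.130 and MLO11 at 0.138. Nearest to ARR5 were HSD3 at 0.137, PDCB4 at 0.138 and AT1G07300 at 0.144. Nearest to ARR6 were SCL8 at 0.220, the joined row of A/N-InvB and LAP5 at 0.221 and PPC2 at 0.226.

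Of 63 other cytokinin pathway genes tested, 24 (38.1%) were called in 35S-RTL1-Myc against Col-0, where 29.5% of all rows were, and 16 (25.4%) in the added contrast, where 20.9% were. The shares were thus not far from those over all rows. Of 5 receptors and sensor kinases tested, 3 rose and 1 fell in 35S-RTL1-Myc against Col-0. The cytokinin receptor AHK2 fell by 0.68 on the log2 scale (SE 0.20, edgeR adjusted p = 0.0187), and the receptor AHK3 rose by 0.28 (SE 0.10, edgeR adjusted p = 0.0495). The osmosensing kinase AHK1, which is no cytokinin receptor, rose by 0.72 (SE 0.15, edgeR adjusted p = 0.00191). The third to rise was the row of AHK5, which it shares with a neighbour. Of 5 phosphotransfer proteins tested, 1 rose and 0 fell: AHP4, at 1.77 (SE 0.49, edgeR adjusted p = 0.014).

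The type-B regulators switch on type-A genes. In 35S-RTL1-Myc against Col-0, 29.5% of all rows were called, 14.8% higher and 14.7% lower, and the counts below are read against that. Of 8 type-B regulators tested, 1 rose and 1 fell there: ARR10 rose by 0.93 (SE 0.09, edgeR adjusted p = 8.83e-06) and ARR11 fell by 1.15 (SE 0.23, edgeR adjusted p = 0.00192). Of the 4 KMD F-box proteins, which target type-B regulators for degradation, 2 fell and 0 rose, with KMD2 at -1.65 (SE 0.27, edgeR adjusted p = 0.000383). Of 6 cytokinin response factors, 3 fell and 1 rose: CRF6 averaged 23.2 CPM in 35S-RTL1-Myc and 13.9 CPM in Col-0 (log2 fold change 0.73, SE 0.10). CRF6 was also the 1 cytokinin response factor called in rtl2-1, at 0.52 (SE 0.09, edgeR adjusted p = 0.0347). Over all rows 0.122% were called in that contrast by edgeR. Their number, 26, changed with the fit, to 1 with the compared groups alone and 140 by DESeq2.

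Of 14 cytokinin synthesis genes tested, 1 rose and 1 fell in 35S-RTL1-Myc, where 14.8% of all rows rose and 14.7% fell. LOG5 rose by 1.11 (SE 0.20) and LOG1 fell by 1.01 (SE 0.19), and both encode enzymes that release active cytokinin. Of 10 genes of cytokinin breakdown and conjugation, 5 rose and 2 fell. The cytokinin oxidase CKX2 had 2.32 and 2.18 CPM in 35S-RTL1-Myc, against 8.70, 9.38 and 8.80 CPM in Col-0, and fell by 1.99 (SE 0.18, edgeR adjusted p = 2.28e-06). CKX3, another oxidase, fell by 1.54 (SE 0.26, edgeR adjusted p = 0.000578), and the rows of CKX5 and CKX6, which are shared with neighbours, rose by 0.57 and 0.60. Of 5 transport genes 1 fell and 0 rose, ENT3 at -1.05 (SE 0.19), and of 6 other cytokinin-induced genes 1 rose and 0 fell, the expansin gene EXPA1 at 0.99 (SE 0.19).

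In dcl234 against Col-0, 4 of the 63 pathway genes (6.35%) were called, all lower, where 4.56% of all rows were called and most of those, 812 of 973, were lower. They were the type-B regulator ARR2 at -0.46 (SE 0.12, edgeR adjusted p = 0.0368), and IPT7, LOG1 and CKX2. LOG1 had 21.2, 20.2 and 21.8 CPM in dcl234, against 40.1, 45.1 and 38.6 CPM in Col-0, with a log2 fold change of -0.97 (SE 0.16, edgeR adjusted p = 0.00489). CKX2 had 5.14, 4.67 and 4.23 CPM in dcl234, a log2 fold change of -0.94 against Col-0 (SE 0.14, edgeR adjusted p = 0.00282). For both genes the 2 groups did not overlap. IPT7, a cytokinin synthase, rested on 2 counts in each dcl234 library. In dcl234 35S-truncatedDCL1 against dcl234 the 1 pathway gene called was CKX4, at 2.29 (SE 0.54, edgeR adjusted p = 0.0196), a call that rests on 1 library and has no replicate check.

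In the added contrast 20.9% of all rows were called, 9.11% higher and 11.8% lower, and the counts below are read against that. There 2 of 5 receptors and sensor kinases rose and 0 fell. Of 8 type-B regulators 2 fell and 0 rose, and 2 of 4 KMD genes fell and 0 rose. Of 14 synthesis genes 1 rose and 3 fell, of 10 breakdown and conjugation genes 1 rose and 2 fell, of 5 transport genes 1 fell and 0 rose, and of 6 other cytokinin-induced genes 1 rose and 1 fell. In the added contrast LOG1 had a log2 fold change of -0.78 (SE 0.16, edgeR adjusted p = 0.00572) and CKX2 of -0.95 (SE 0.14, edgeR adjusted p = 0.000721). There the receptor AHK4 averaged 33.9 CPM in dcl234 35S-RTL2 and 19.5 CPM in 35S-RTL2, and rose by 0.80 (SE 0.14, edgeR adjusted p = 0.00203).

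The closest relatives of the members were too low to test. ARR24, the second type-C gene, had at most 3 counts in a library, and ARR17, the type-A relative of ARR16, at most 6. Neither passed the filter on low counts.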

How the data were processed

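Per the labels, mRNA libraries were sequenced on a HiSeq instrument. The authors deposited raw read counts per row for each library, and per the submitters' processing notes the build was TAIR9. The sources used here do not name the aligner, the counter or its use of strand, so reads of a gene and its antisense partner may be mixed. Rows were kept with filterByExpr (21343), scaled by TMM and fitted with edgeR 4.0.16 (glmQLFit, glmQLFTest) in R 4.3.3, as a mean per group over all 18 libraries. Calls used a threshold of 0.05 on p adjusted by Benjamini-Hochberg across the rows kept. SEs come from the quasi-likelihood F statistic. The common biological coefficient of variation was 15.1%. Alternatives were RLE scaling, DESeq2 1.42.0, no filter on low counts, the compared groups fitted alone, a replicate block, table number as a batch, and leaving out each replicate. Members and lists were chosen with earlier results of these data known, and the contrast of dcl234 35S-RTL2 with 35S-RTL2 and the tapetum, pollen, ovule and seed coat lists after the values here were seen. Named genes were all members, up to 4 genes with the smallest adjusted p of each pathway list, and the rows nearest to each called member. Exon lengths came from RefSeq TAIR10.1. No promoter or protein sequence was used here, and the planned promoter motif search was not run. The fits were tested on simulated data.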

Additional observations from a re-analysis of the deposited data

How the results depend on the processing

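Counts of called members stayed within 1.5 times the reported ones, apart from 5 cases. In dcl234 against Col-0 the compared groups fitted alone gave 4 in place of 1. In dcl234 35S-RTL2 against 35S-RTL2, 2 were called in place of 4 with the groups alone and with table number as a batch, and leaving out a library gave 1 to 3. Leaving out a library gave 4 to 5 of 6 in 35S-RTL1-Myc. Small uncalled log2 values that changed sign were ARR6 in dcl234 against Col-0 (-0.074 with table number, -0.20 to 0.22 over the fits leaving out a library), and, leaving out a library, ARR9 in that contrast (-0.10 to 0.019), ARR5 in the added contrast (-0.0053 to 0.051) and ARR16 in the RTL2 interaction (-0.40 to 0.024). Over all rows, calls in dcl234 against Col-0 were 973, and 1471 by DESeq2, 3336 with the groups alone, 149 with table number and 282 to 562 leaving out a library. In rtl2-1 they were 26, and 140 by DESeq2, 1 alone, 15 with table number and 12 to 54 leaving out a library. In 35S-RTL2 they were 2, and 7 by DESeq2, and in dcl234 35S-RTL2 against dcl234 13, and 51 by DESeq2 and 9 to 32 leaving out a library. In the truncated DCL1 contrast they were 1205 and 2942 alone, and in the interaction 2, with 11 by DESeq2, 0 with table number and 0 to 2 leaving out a library. Leaving out a library gave 3939 to 5212 of 6289 in 35S-RTL1-Myc, and 1952 to 5912 of 4461 in the added contrast. Same-numbered replicates of compared groups did not deviate together beyond r = 0.1 in every pair (r = -0.30 to 0.44), so the numbers were not taken as pairs, although in dcl234 against Col-0 3 of 3 correlated best with their own number. The replicate block called 5 members in 35S-RTL1-Myc, losing ARR5 (adjusted p = 0.0728), and 5678 rows in the added contrast. ARR22 rests on at most 14 counts in each low library, which limits the size of its fold change.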
